A study of Mus musculus with 13 samples.

Results

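The cells described here were T cells carrying Cd8a transcripts, taken from 10x single-cell libraries of mouse colon tumors and adjacent colonic mucosa by a gate meant to select CD8 alpha beta T cells. A barcode was a member when it held 500 or more UMIs from 200 or more genes, with less than 25% of them mitochondrial, and when its raw UMIs showed Cd3d, Cd3e and Cd3g summing to 2 or more, Cd8a of 1 or more, Trac, Trbc1 and Trbc2 summing to 1 or more, and 0 for Trdc, Cd4, Foxp3, Il17a and Cd79a. A UMI (unique molecular identifier) counts 1 captured RNA molecule. The gate kept 2864 of 118892 cells that passed the quality limits, 1763 of 25021 from mucosa and 1101 of 93871 from tumors. Levels of the gate's own genes follow from this choice and are not results. Just inside the limits, 61 mucosa and 26 tumor members had a Cd3 sum of exactly 2, while 36 mucosa and 16 tumor barcodes failed only because that sum was 1. A single Cd8a UMI carried 702 mucosa and 376 tumor members through the gate.

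CD8 alpha beta T cells recognise peptides on MHC class I and kill target cells with perforin and granzymes, or act on neighbours through cytokines and chemokines such as CCL5. In the gut wall many T cells sit between the epithelial cells as intraepithelial lymphocytes. These include conventional CD8 alpha beta cells, cells that carry a CD8 alpha homodimer without the beta chain, and gamma delta T cells, and they share the integrin CD103 (Itgae), CD160, CD7 and granzymes. In tumors, CD8 T cells that meet antigen repeatedly are known to gain inhibitory and costimulatory receptors such as CTLA-4, PD-1 and 4-1BB.

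All 13 libraries came from 3 C57BL/6J mice of genotype ApcMin/+; p16cis/cis, which carry a tumor-predisposing Apc mutation in every cell together with an engineered epimutation of p16, and all mice ate a supplemented diet enriched in methyl donors. Mouse A was 24, mouse B 23 and mouse C 20 weeks old. Mouse C gave mucosa 1 and colon tumors 1 to 4, mouse A gave mucosa 2 and colon tumors 5 to 8, and mouse B gave mucosa 3 and colon tumors 9 and 10, so the design asks how the T cells of a tumor differ from those of the mucosa beside it. Mice on the control diet or without these alleles are not analysed here, so neither diet nor genotype is compared. Mucosa was freed with EDTA and TrypLE, and tumors with a tumor dissociation kit, so tissue and dissociation method cannot be told apart in any tumor to mucosa comparison below.

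The libraries held 6537 to 15049 barcodes, of which 5188 to 10817 passed the limits, and 57221300 to 116133079 UMIs. The sums of the gated cells, which set the precision of their CPM, held 769716 to 2849006 UMIs in mucosa and 195210 (colon tumor 3) to 1166701 in tumors. Gated cells had a median of 3805, 1357 and 1885 UMIs in mucosa 1, 2 and 3 and of 3942 to 5139 in the tumors, so every mucosa library lay below the shallowest tumor and mucosa 2 and 3 far below it. Any pair of libraries shared 14 to 61 barcodes (median 28 over 78 pairs), and none of these was a gated cell in both. The sex labels called 7 libraries female and 6 male, whereas all 13 held 2 to 10 Xist UMIs and 6985 to 13134 UMIs of 4 Y-linked genes, so sex was not used. Transcripts of other cell types also moved with the comparison. The 8 neutrophil markers summed to 1.94 to 6.67 CPM (a gene's UMIs per 1000000 UMIs of the gated cells of a library) in mucosa and to 169 to 8440 CPM in tumors, and the 8 macrophage markers to 6.50 to 31.9 and 55.5 to 6222 CPM. The 12 epithelial markers overlapped, with 3330 to 12783 CPM in mucosa and 101 to 4155 CPM in tumors. The 4 hemoglobin genes summed to 3341 to 7144 CPM in mucosa and had a median of 27.8 CPM in tumors, with colon tumor 4 at 14381 CPM. None of them passed edgeR's test of tumor against mucosa below. In all mucosa sums 5 of the 8 neutrophil markers were at 0. Gated cells with 2 or more UMIs of the neutrophil or macrophage lists or Epcam made up 5.37 to 13.1% of members in mucosa and 23.0 to 89.5% in tumors. Each gene group below was also fitted without those cells. In those fits colon tumor 5, with 4 cells left, fell under the minimum of 20 cells, and colon tumor 3 held 20.

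The label CD8 alpha beta was checked against the gamma chain, which the gate did not use. Transcripts of Tcrg-C1, Tcrg-C2 or Tcrg-C4, the constant genes of the gamma chain, were found in 82.2, 56.3 and 67.1% of members in mucosa 1, 2 and 3, and in 18.5, 30.4 and 52.4% (lowest, median, highest) of those in the 10 tumors. Every mucosa share exceeded every tumor share. When cells with 1500 or more UMIs were thinned to 1500 and gated again, the shares were 48.0 to 68.2% in mucosa and 10.8 to 47.4% in tumors. Cells under 1500 UMIs were left out. The ranges again did not overlap, but barely, with mucosa 2 at 48.0% of 127 cells and colon tumor 3 at 47.4% of 19 cells. For reference, cells with a Trdc UMI and no Cd4, the gamma delta gate, carried these gamma transcripts in 79.7 to 96.2% (mucosa) and 50 to 90.9% (tumors), and conventional CD4 T cells in 6.25 to 16.3% and 3.39 to 32.4%. The gamma genes are close paralogs whose reads can be shared, so the shares use their union.

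Alpha and beta chain transcripts, which the gate required, were also found outside it, since 76.1 to 96.4% of the gamma delta cells in mucosa held a Trac, Trbc1 or Trbc2 UMI. In mucosa 2, 51.5% of the gamma delta cells showed a single Trdc UMI, close to the limit at which a cell falls into the CD8 gate. Only 0.767 to 2.07% of the gamma delta cells in mucosa held a Cd8b1 UMI, whereas gamma transcripts occurred in Cd8b1+ members too, so a gamma transcript does not make a member a gamma delta cell. Whether all members are CD8 alpha beta cells was not settled by these transcripts, and they are called Cd8a-gated T cells below. To see which results rest on cells with gamma transcripts, each comparison was repeated on the gated cells with at least 1 Cd8b1 UMI and no Tcrg-C1, Tcrg-C2 or Tcrg-C4 UMI, called Cd8b1+ gamma-negative cells. They numbered 83, 43 and 80 in the mucosa libraries and 8 to 100 in the tumors. Colon tumors 3 and 5, with 8 and 16 such cells, fell under the minimum of 20 cells and left those fits.

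**Figure D1:**
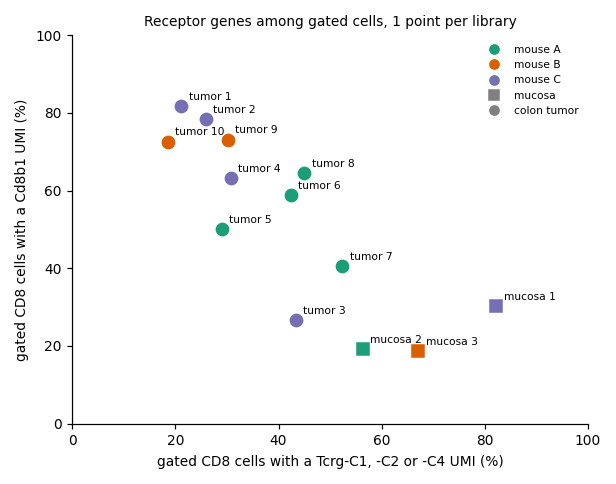
Percentage of Cd8a-gated T cells with a Cd8b1 UMI (y axis) against the percentage with a Tcrg-C1, Tcrg-C2 or Tcrg-C4 UMI (x axis), 1 point for each of 13 libraries. The 3 mucosa libraries lie at 56.3 to 82.2% on the x axis and 18.8 to 30.4% on the y axis, and the tumors at 18.5 to 52.4% and 26.7 to 81.6%.

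Cd8b1 encodes the beta chain of the CD8 coreceptor, which marks conventional CD8 T cells, and was not part of the gate. It was detected in 30.4, 19.3 and 18.8% of members in mucosa 1, 2 and 3, and in 26.7, 63.9 and 81.6% (lowest, median, highest) of members in the tumors. Of 10 tumors 9 exceeded their own mucosa, and colon tumor 3, with 8 of 30 cells, did not. Averaged over mice, the share was 62.9% ± 9.71 (SD, n = 3 mice) in tumors and 22.8% ± 6.56 in mucosa, a difference of 40.1 points (p = 0.0267, exact permutation within mice over 75 assignments, two-sided, adjusted p = 0.0267 over 3 shares). After thinning to 1500 UMIs the difference was 20.1 points (adjusted p = 0.12, same exact test), and the call was lost. Thinning came before the gate and also changed the members (405 to 127 in mucosa 2), so depth and the set of cells cannot be told apart. Without the cells holding gamma transcripts the difference was 29.0 points (adjusted p = 0.06), with 2 of 10 tumors below their own mucosa and mouse C at -3.94 points, since mucosa 1 stood at 78.3%. Leaving out mucosa 1, 2 or 3 also ended the call (adjusted p of 0.0667, 0.133 and 0.08, exact permutation). Without mucosa 1 or 2 the exact test allows no p under 0.0667, so those calls had to end. In conventional CD4 cells, which should lack the gene, the share was 0 of 80 cells at a median of 3716 UMIs in mucosa 1 and 0.885 to 4.28% in the tumors, and among Epcam+ cells it was at most 0.581%. The CD4 cells were chosen without a Cd8a UMI, which can lower their Cd8b1 share. Gamma delta cells, chosen without regard to Cd8a, held a Cd8b1 UMI in 0 to 7.14% of cells in 8 tumors. In colon tumor 9 it was 3 of 18 gamma delta cells. The Cd8b1 shares of gated cells stood above those of CD4, Epcam+ and gamma delta cells in all 13 libraries. As a level per UMI, Cd8b1 measured 285, 231 and 147 CPM in mucosa and 123, 408 and 604 CPM in tumors, which overlapped and did not pass edgeR's test (1.05 ± 0.43 (adjusted p = 0.0995)), and the log2 fold change was 0.09 ± 0.39 (adjusted p = 0.923) in gated cells without gamma transcripts.

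Gamma transcripts and Cd8b1 were unevenly spread over the members. Among gated cells with a Cd8b1 UMI, 44.1 to 54.1% in mucosa and 0 to 34.8% in tumors also held a gamma transcript. Among those without Cd8b1 the shares were 59.0 to 94.5% and 40.0 to 66.7%. Colon tumor 3 had a low Cd8b1 share and few members, and the mice did not differ in Cd8b1 share among tumors beyond the spread between tumors (means of 53.4, 72.9 and 62.5% in mice A, B and C, exact permutation p = 0.484 over mice, adjusted p = 0.986).

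Cd8a-gated T cells took up a smaller part of the tumors than of the mucosa. They made up 11.5, 3.79 and 8.33% of all kept cells in mucosa 1, 2 and 3, against 0.395, 1.27 and 1.82% (lowest, median, highest) in the tumors. All 10 tumors lay below every mucosa library. The means over mice were 1.22% ± 0.189 and 7.87% ± 3.87 (SD, n = 3 mice), a difference of -6.65 points (exact permutation p = 0.0133, which is the smallest that 75 assignments allow, adjusted p = 0.02). Without the cells holding gamma transcripts the share was 2.04, 1.66 and 2.74% in mucosa and 0.229, 0.837 and 1.48% in tumors, and the difference was -1.30 points (adjusted p = 0.04, exact permutation). Leaving out mucosa 1, 2 or 3 ended the call on all gated cells (adjusted p of 0.0667, 0.1 and 0.06, exact permutation), with all tumors still below their own mucosa. Without mucosa 1 or 2 the exact test allows no p under 0.0667, and without mucosa 3 none under 0.04. The unadjusted p stood at this floor each time, so the calls without mucosa 1 or 2 had to end. Colon tumors 3 and 5 had the fewest members, 30 and 38 cells.

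Among T cells alone, defined by a Cd3 sum of 2 or more, the gated cells were 42.3, 29.0 and 36.8% in mucosa and 8.90, 14.5 and 21.2% in tumors. The groups did not overlap, and the difference was -21.7 points (exact permutation p = 0.0133, adjusted p = 0.02, or 0.0667, 0.1 and 0.06 without mucosa 1, 2 or 3). Without mucosa 1 or 2 the exact test again allowed no p under 0.0667. The difference was not detected once cells with gamma transcripts were left out. Without them the shares were 7.52, 12.7 and 12.1% in mucosa and 5.04, 9.02 and 14.7% in tumors. The difference was then -1.02 points (exact permutation p = 0.613), with 6 of 10 tumors below their own mucosa. By mouse it was -4.80, -1.17 and 2.91 points in A, B and C. Finding a gamma transcript depends on depth, which was lower in mucosa 2 and 3, and the part of depth was not tested. Gated cells without gamma transcripts were scarcer among all cells of a tumor, while a difference in their part of the T cells was not detected. A share falls when other cells are added as well as when these cells are fewer, and the 2 cannot be told apart here. The mean shares of kept cells in tumors were 1.04, 1.42 and 1.20% in mice A, B and C (exact permutation p = 0.752, adjusted p = 0.986).

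**Figure D2:**
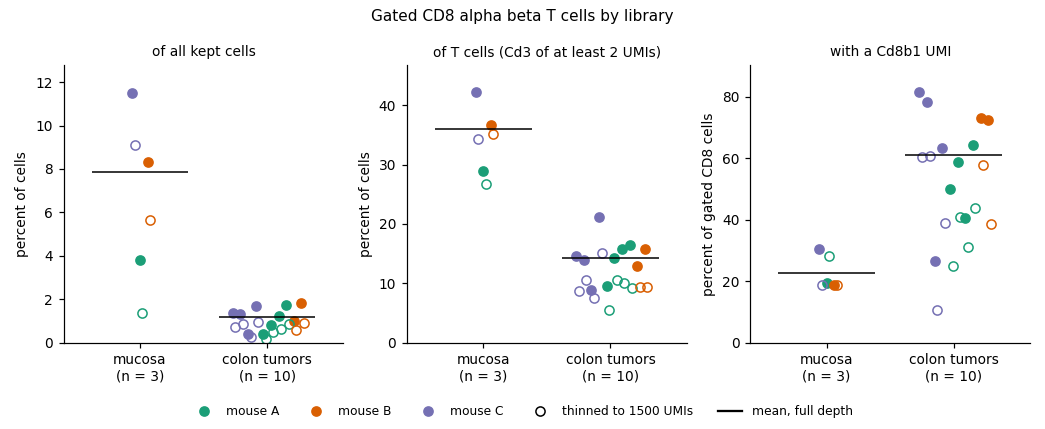
Percentage of kept cells and of T cells that were Cd8a-gated, and percentage of gated cells with a Cd8b1 UMI, for each library (points colored by mouse, filled at full depth and open after thinning to 1500 UMIs, lines for means over libraries). Both abundance shares are lower in all tumors than in all mucosa libraries, and the Cd8b1 share is higher in 9 of 10 tumors than in their own mucosa at full depth.

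Gene levels were compared on the UMI sums of the gated cells of each library, 10 tumors against 3 mucosa samples, by the quasi-likelihood test of edgeR, with p values adjusted after Benjamini and Hochberg over 7777 genes. All adjusted p values for genes below come from this test. Of these genes 1720 (22.1%) differed, 941 (12.1%) higher and 779 (10%) lower in tumors. Counts of list members below stand beside these shares. For 1074 genes (13.8%) no tumor library reached into the range of the mucosa libraries. Of the 941 higher genes, 556 (59.1%) were at least as high in gated cells as in all other cells of the tumors, and the remainder were more abundant in the other cells. In the Cd8b1+ gamma-negative cells 248 of 4842 genes (5.12%) differed, 183 (3.78%) higher and 65 (1.34%) lower. Of these, 236 were among the 1720, which is 95.2% of the smaller list and 13.7% of the larger, and none changed direction. Of the 1720 genes, 1137 were measured in these cells. The gated cells without gamma transcripts, whether or not Cd8b1 was seen, gave 760 of 5770 genes (13.2%), 448 (7.76%) higher and 312 (5.41%) lower, and 699 of these were among the 1720. Members with a Cd8b1 UMI gave 451 of 6296 (7.16%), 291 (4.62%) higher and 160 (2.54%) lower, and members without 709 of 4119 (17.2%), 436 (10.6%) higher and 273 (6.63%) lower. Removing the barcodes with the highest doublet scores left 920 of 6911 tested genes, and thinning to 1500 UMIs 724 of 3477. Leaving out members with 2 or more neutrophil, macrophage or Epcam UMIs left 715 of 5109 (14%, with 8.14% higher and 5.85% lower). The fit without colon tumors 3 and 5 gave 1742 of 7510, and the fit with the tumors of each mouse summed gave 1829 of 9923. Without mucosa 2 or mucosa 3 the count was 1087 of 8096 or 837 of 8054. These fits tested different numbers of genes, so their counts do not share 1 base. The tumors of a mouse entered as separate samples, so these p values measure the spread between tumors and between mucosa samples of 3 mice.

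**Figure D3:**
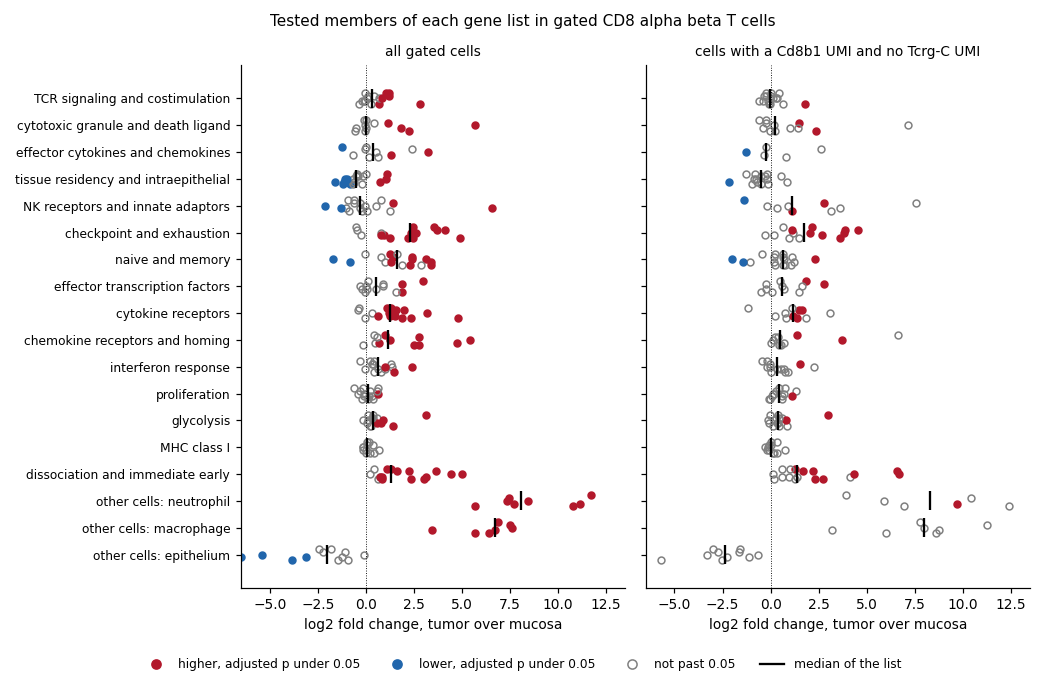
Log2 fold change between tumor and mucosa of the measured members of gene lists, in all gated cells and in Cd8b1+ gamma-negative cells, with positive values higher in tumors. Members of the checkpoint and immediate early lists lie mostly above 0 in both sets of cells, and the naive and memory list stands closer to 0 in the Cd8b1+ gamma-negative cells.

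Receptor signaling and costimulation genes were higher in part. Of 16 measured members 6 rose and none fell, with a median log2 fold change of 0.34 beside -0.00025 over all genes. Without members holding neutrophil, macrophage or epithelial UMIs 3 of 16 rose. Cd28, the receptor for the costimulatory ligands CD80 and CD86, stood at 21.1, 14.3 and 8.94 CPM in mucosa 1, 2 and 3 and at 36.8, 99.2 and 148 CPM (lowest, median, highest) in tumors. All tumors lay above all mucosa libraries, with a log2 fold change of 2.84 ± 0.40 (SE, adjusted p = 8.97e-05). In Cd8b1+ gamma-negative cells it was the only member to rise, by 1.80 ± 0.30 (adjusted p = 0.00124). Cd5 and Cd6, which restrain receptor signaling, rose in all gated cells by 1.19 ± 0.35 (adjusted p = 0.0183) and 1.21 ± 0.31 (adjusted p = 0.00956) on the log2 scale. In Cd8b1+ gamma-negative cells their values were -0.25 ± 0.32 (adjusted p = 0.728) and -0.26 ± 0.26 (adjusted p = 0.647), below 0, and the calls were lost. Both genes were low in gamma delta cells of the mucosa (0.662 ± 0.584 and 2.52 ± 2.05 CPM, mean ± SD, n = 3). Ubash3a and Thy1 rose by 1.03 ± 0.27 and 0.86 ± 0.28, and these calls were also lost in the restricted cells. Leaving out mucosa 3 ended the calls of Cd6, Cd5 and Thy1 (adjusted p of 0.0775, 0.167 and 0.217), leaving out mucosa 2 those of Thy1 and Ubash3a (0.155 and 0.0501), leaving out mucosa 1 those of Cd6 and Cd5 (0.0583 and 0.052), and leaving out colon tumor 5 or 8 that of Thy1 (0.0502 and 0.0501). Lck, the kinase bound to CD4 and CD8, had 297, 308 and 274 CPM in mucosa and 128, 216 and 289.9 CPM in tumors, which overlapped (-0.21 ± 0.21 (adjusted p = 0.528)).

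Of 12 measured granule and death ligand genes 4 rose and none fell, namely the granzyme inhibitors Serpinb9 and Serpinb6b, the proteoglycan Srgn and the granzyme Gzmc, with a median log2 fold change of 0.0050, and without members holding neutrophil, macrophage or epithelial UMIs 3 rose and 1 fell. Nkg7, which regulates granule exocytosis and is a marker named for these cells, measured 1713, 1609.7 and 1194 CPM in mucosa and 743, 1339 and 1706 CPM in tumors. Gzma, which encodes granzyme A, measured 9297, 5505 and 6769.6 CPM in mucosa and 897, 4774 and 6947 CPM in tumors, where colon tumors 5 and 6 were lowest with 897 and 1544 CPM. Gzmb measured 1494, 904 and 1143 and 492, 1079 and 1578 CPM. For all 3 genes the groups overlapped, with log2 differences of -0.05 ± 0.25 (adjusted p = 0.911), -0.56 ± 0.51 (adjusted p = 0.477) and 0.01 ± 0.38 (adjusted p = 0.995). Perforin (Prf1) also overlapped, at 22.5, 46.8 and 43.5 and 10.2, 27.9 and 56.7 CPM (-0.11 ± 0.30 (adjusted p = 0.834)).

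Within the same group Serpinb9, the inhibitor that shields cytotoxic cells from granzyme B, rose from 26, 45.5 and 27.6 CPM in mucosa to 78.8, 121 and 235 CPM in tumors. The groups did not overlap, with a log2 fold change of 2.22 ± 0.32 (SE, adjusted p = 5.82e-05), and the rise held in Cd8b1+ gamma-negative cells at 2.37 ± 0.43 (adjusted p = 0.00223). Srgn, the granule proteoglycan serglycin, rose by 1.18 ± 0.25 (adjusted p = 0.00242) and by 1.47 ± 0.31 (adjusted p = 0.00691) in the restricted cells. Srgn was more abundant in the other cells of tumors (mean 2799.9 CPM) than in gated cells, and without members holding neutrophil, macrophage or epithelial UMIs its call was lost (adjusted p = 0.104). Their part in the result was not tested. Serpinb6b rose by 1.85 ± 0.37 (adjusted p = 0.00213) in all gated cells and lost its call in the restricted cells (adjusted p = 0.158). Gzmc, a granzyme of strongly stimulated T cells, measured 6.67, 0 and 1.94 CPM in mucosa and 15.4, 58.7 and 754 CPM in tumors, with colon tumor 9 at the top and colon tumors 2 and 4 at 315 and 244 CPM. Its call (adjusted p = 0.0227) was lost in Cd8b1+ gamma-negative cells (adjusted p = 0.222) and without mucosa 1, 2 or 3 (adjusted p of 0.052, 0.0838 and 0.112). Granzyme genes are similar in sequence, so reads may be divided among them.

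Ccl5, the chemokine that attracts T cells and myeloid cells and a marker named for these cells, fell. It measured 22413, 13078 and 15621 CPM in mucosa and 5082, 6697 and 7007 CPM in tumors. All tumors lay below all mucosa libraries and within a narrow range, with a log2 fold change of -1.25 ± 0.18 (SE, adjusted p = 5.62e-05), and the fall was the same size in Cd8b1+ gamma-negative cells, -1.25 ± 0.30 (adjusted p = 0.0172). It was 1 of 10 measured cytokine and chemokine genes to fall, while Tnf and Tnfsf11 rose by 1.33 ± 0.36 (adjusted p = 0.0111) and 3.25 ± 0.46 (adjusted p = 4.9e-05). Both were too low for a test in Cd8b1+ gamma-negative cells, where none of 5 measured members rose. With members holding neutrophil, macrophage or epithelial UMIs left out, Tnfsf11 alone of 6 rose (2.76 ± 0.71 (adjusted p = 0.00746)) and Tnf was too low. Tnf, a cytokine that myeloid cells also make, stood at 70.3 CPM in the other cells of tumors, above its level in gated cells, and its call was lost without mucosa 2 or 3 (adjusted p of 0.0601 and 0.0827). Ifng, the interferon that activates macrophages, measured 111, 53.3 and 116 CPM in mucosa and 24.6, 94.8 and 379.6 CPM in tumors, with colon tumor 2 highest. Its groups overlapped (0.64 ± 0.62 (adjusted p = 0.509)).

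Genes of tissue residency and the intraepithelial compartment were lower in part. Of 19 measured members 6 fell and 3 rose, with a median log2 fold change of -0.49. In Cd8b1+ gamma-negative cells 1 of 15, Cd7, fell and none rose. Without members holding neutrophil, macrophage or epithelial UMIs 9 of 18 fell and 1 rose. Cd7, a costimulatory receptor abundant on intraepithelial cells, measured 1614, 1733 and 1184 CPM in mucosa and 246, 424 and 689.5 CPM in tumors. The groups were far apart, with a log2 fold change of -1.61 ± 0.24 (SE, adjusted p = 7.85e-05), and in Cd8b1+ gamma-negative cells the fall was -2.15 ± 0.33 (adjusted p = 0.00124). Itgae, the CD103 chain that binds epithelial E-cadherin, measured 241, 196 and 185 CPM in mucosa and 56.8, 113 and 133 CPM in tumors without overlap, a log2 fold change of -0.82 ± 0.21 (SE, adjusted p = 0.00921). Itga1, which pairs into a collagen receptor, fell by -1.11 ± 0.32 (adjusted p = 0.0198) and Gpr18, a lipid receptor of intraepithelial cells, by -0.96 ± 0.20 (adjusted p = 0.00152). Itgae, Itga1 and Gpr18 kept negative values in Cd8b1+ gamma-negative cells, -0.94 ± 0.41 (adjusted p = 0.207), -0.76 ± 0.56 (adjusted p = 0.498) and -0.70 ± 0.24 (adjusted p = 0.105), but lost the call. Cd69, which holds T cells in tissue, rose by 0.73 ± 0.26 (adjusted p = 0.0499) in all gated cells and missed the threshold in the restricted cells (adjusted p = 0.0994). Leaving out mucosa 1 ended the calls of Itgae and Cd69 (adjusted p of 0.0595 and 0.134), and leaving out mucosa 2 or 3 that of Itga1 (0.0899 and 0.0568). Without mucosa 3 Cd69 had an adjusted p of 0.279, and without colon tumor 2, 4, 5, 6, 9 or 10 it was 0.0588, 0.0628, 0.063, 0.0682, 0.07 or 0.0649. Cxcr6 measured 140.0, 169 and 124 CPM in mucosa and 25.6, 107 and 196 CPM in tumors, which overlapped (-0.16 ± 0.38 (adjusted p = 0.808)).

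Of 17 measured NK receptor and adaptor genes, 2 rose and 2 fell, close to the shares over all genes (12.1% and 10%). Without members holding neutrophil, macrophage or epithelial UMIs none of 14 rose and 4 fell, and in Cd8b1+ gamma-negative cells 2 of 9 rose and 1 fell. Cd160, a receptor for the herpesvirus entry mediator, measured 689, 679 and 468 CPM in mucosa and 129, 205 and 373 CPM in tumors. All tumors lay lower, with a log2 fold change of -1.31 ± 0.22 (SE, adjusted p = 0.000272), also in Cd8b1+ gamma-negative cells, -1.37 ± 0.29 (adjusted p = 0.00732). Cd244a, the receptor 2B4 for CD48, measured 94.4, 93.5 and 86.7 CPM in mucosa and 4.36, 16.8 and 26.9 CPM in tumors, a log2 fold change of -2.13 ± 0.25 (SE, adjusted p = 6.82e-06). It was too low for a test in the restricted cells and fell by -3.0 ± 0.42 (adjusted p = 9.02e-05) in all gated cells without gamma transcripts. Klrc2, an activating NKG2 receptor for Qa-1, measured 26.7, 29.9 and 20.2 CPM in mucosa and 17.6, 54.1 and 132 CPM in tumors. These groups overlapped at their edges, with a log2 fold change of 1.42 ± 0.45 (SE, adjusted p = 0.0367) and 2.76 ± 0.67 (adjusted p = 0.0224) in the restricted cells, where its mucosa level was 7.85 CPM. In all gated cells the Klrc2 call was lost without mucosa 1, 2 or 3 (adjusted p of 0.0889, 0.0951 and 0.177) and without colon tumor 5, 7 or 8 (0.053, 0.052 and 0.0566). Cd160 and Cd244a were as high in gamma delta cells of the mucosa, 574 ± 195 and 114 ± 25.5 CPM.

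**Figure D4:**
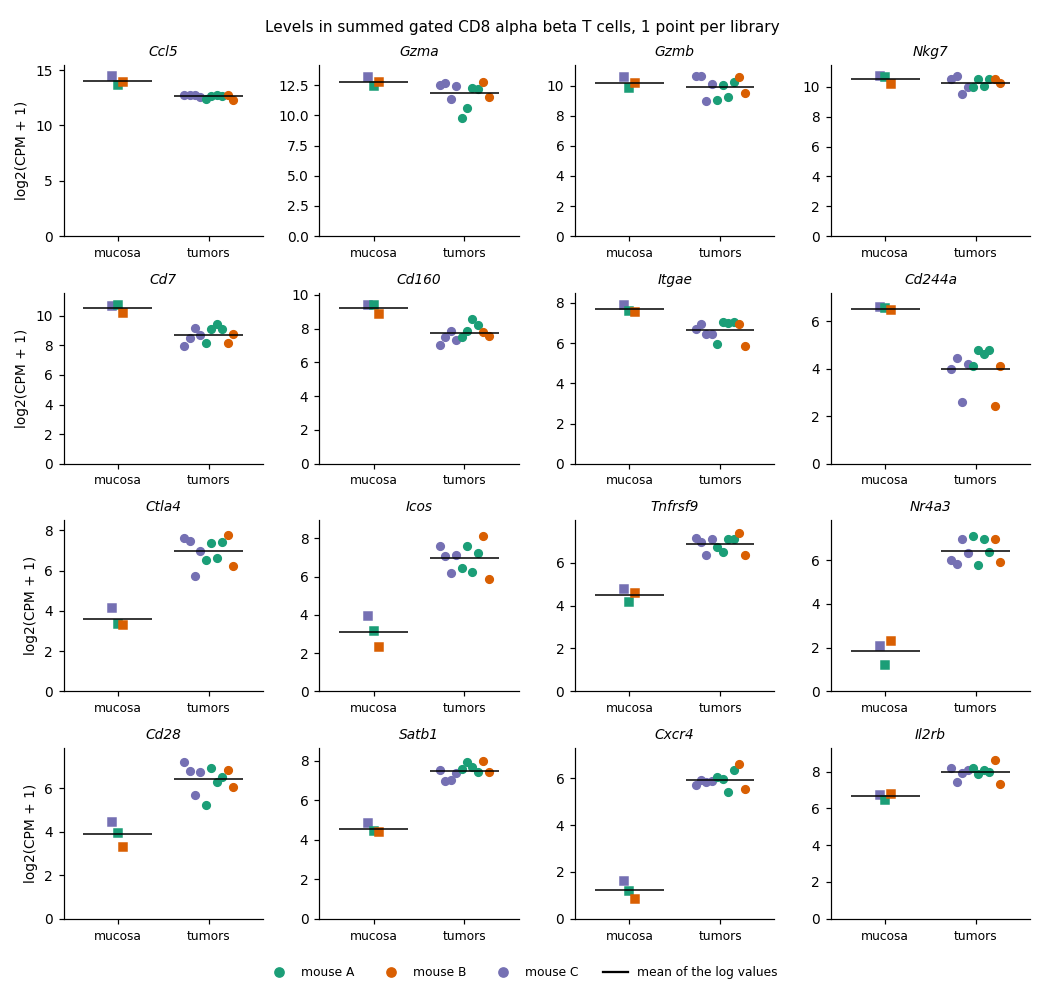
Level of 16 genes in Cd8a-gated T cells, as log2(CPM + 1), in each mucosa and tumor library. Ctla4, Icos, Tnfrsf9, Nr4a3, Cd28, Satb1, Cxcr4 and Il2rb are higher in all 10 tumors than in all 3 mucosa libraries, Ccl5, Cd7, Cd160, Itgae and Cd244a are lower in all, and Gzma, Gzmb and Nkg7 overlap.

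Of 16 measured genes of the checkpoint and exhaustion list 12 were higher in tumors and none lower, with a median log2 fold change of 2.28. The 12 were the receptors Ctla4, Icos, Tnfrsf9, Tnfrsf18, Tnfrsf4, Pdcd1 and Havcr2, the ectoenzymes Entpd1 and Nt5e, and the transcription factors Rbpj, Nr4a2 and Nr4a3, the last pair described with their family below. Without members holding neutrophil, macrophage or epithelial UMIs 8 of 13 rose and none fell. Ctla4, the inhibitory receptor that competes with CD28, measured 16.5, 9.09 and 8.94 CPM in mucosa and 51.2, 146 and 220.2 CPM in tumors. Icos, a costimulatory receptor of the CD28 family, measured 14.4, 7.8 and 3.89 and 58.2, 136 and 281 CPM, and Tnfrsf9, the activation-induced receptor 4-1BB, 26, 16.9 and 22.9 and 79.8, 129.8 and 163 CPM. For each of the 3 genes every tumor lay above every mucosa library. The log2 fold changes were 3.70 ± 0.46 (adjusted p = 5.5e-05), 4.10 ± 0.60 (adjusted p = 0.000344) and 2.59 ± 0.26 (adjusted p = 9.6e-07). In Cd8b1+ gamma-negative cells 8 of 14 measured members rose and none fell, among them Ctla4, Icos and Tnfrsf9 at 3.86 ± 0.58 (adjusted p = 0.00124), 2.65 ± 0.57 (adjusted p = 0.016) and 3.63 ± 0.58 (adjusted p = 0.00124).

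Tnfrsf18 (GITR) and Tnfrsf4 (OX40), costimulatory receptors of the TNF receptor family, rose by 1.26 ± 0.26 (adjusted p = 0.00144) and 2.44 ± 0.40 (adjusted p = 0.000185), and in the restricted cells by 1.12 ± 0.29 (adjusted p = 0.0268) and 2.05 ± 0.47 (adjusted p = 0.0109). Pdcd1, which encodes PD-1, measured 8.42, 7.8 and 5.83 CPM in mucosa and 8.84, 31.5 and 68.4 CPM in tumors. The groups did not overlap, with a log2 fold change of 2.44 ± 0.47 (SE, adjusted p = 0.0013), but the call was lost in Cd8b1+ gamma-negative cells, 1.47 ± 0.53 (adjusted p = 0.121). Lag3, an inhibitory receptor for MHC class II, measured 70.2, 48.1 and 51.7 CPM and 12.3, 38.7 and 75.8 CPM with overlap (-0.27 ± 0.38 (adjusted p = 0.664)). Havcr2 (TIM-3) and Entpd1 (CD39) rose by 2.34 ± 0.49 (adjusted p = 0.00179) and 2.21 ± 0.36 (adjusted p = 0.000201). The other cells of tumors held more of both, 27.4 and 122 CPM, and macrophages are known to express them. Entpd1 rose in the restricted cells (2.16 ± 0.58 (adjusted p = 0.0303)) while Havcr2 did not pass (1.18 ± 0.84 (adjusted p = 0.469)). Both were too low for a test once members holding neutrophil, macrophage or epithelial UMIs were left out, and the part of carried-over myeloid RNA was not tested.

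The 3 genes of the NR4A family, nuclear receptors induced within hours of T cell receptor signaling and also by other stimuli, all rose. Since they moved together, the 250 bases before the RefSeq gene start (GRCm38.p6) are shown for each, 5′ to 3′ on the gene's strand, at chr15:101266596-101266845 (+) for Nr4a1, chr2:57124004-57124253 (-) for Nr4a2 and chr4:48045055-48045304 (+) for Nr4a3. Capitals mark TGACG or its reverse complement CGTCA, the core bound by CREB and related factors.
Nr4a1: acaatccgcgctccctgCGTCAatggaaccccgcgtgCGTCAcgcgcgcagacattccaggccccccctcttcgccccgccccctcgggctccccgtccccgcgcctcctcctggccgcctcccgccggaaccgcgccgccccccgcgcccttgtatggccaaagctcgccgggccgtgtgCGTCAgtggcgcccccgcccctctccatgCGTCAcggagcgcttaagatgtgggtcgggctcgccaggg
Nr4a2: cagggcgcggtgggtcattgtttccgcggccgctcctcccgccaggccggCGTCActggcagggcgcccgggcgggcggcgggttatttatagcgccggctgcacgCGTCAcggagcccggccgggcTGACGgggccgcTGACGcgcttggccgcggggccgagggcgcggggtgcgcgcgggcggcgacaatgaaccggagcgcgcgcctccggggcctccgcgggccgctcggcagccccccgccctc
Nr4a3: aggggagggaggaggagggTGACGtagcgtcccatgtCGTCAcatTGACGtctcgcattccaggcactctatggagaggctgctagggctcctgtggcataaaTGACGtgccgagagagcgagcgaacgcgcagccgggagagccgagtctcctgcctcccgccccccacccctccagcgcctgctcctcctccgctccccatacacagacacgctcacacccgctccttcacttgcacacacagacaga

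Each of these windows held 4 matches on either strand. Of 32851 promoter windows of the same length, 17.8% held at least 1 match and 45 (0.137%) held 4 or more. The cutoff of 4 is the count in the windows shown, and the other windows were not matched for base content. The 0.137% is therefore a description and no test. A match describes the letters only and is no evidence of binding. Nr4a3 measured 3.16, 1.3 and 3.89 CPM in mucosa and 53.8, 81 and 135 CPM in tumors, a log2 fold change of 4.89 ± 0.37 (SE, adjusted p = 4.09e-08). Nr4a2 measured 27, 14.3 and 14 CPM in mucosa and 99, 176 and 369 CPM in tumors, a log2 fold change of 3.55 ± 0.44 (SE, adjusted p = 4.89e-05). Nr4a1 measured 13.3, 6.5 and 7.39 CPM in mucosa and 42.8, 65.7 and 143 CPM in tumors, a log2 fold change of 3.02 ± 0.31 (SE, adjusted p = 1.43e-06). None of the 3 overlapped between groups, and all kept their calls in Cd8b1+ gamma-negative cells at 4.54 ± 0.60 (adjusted p = 0.000165), 3.83 ± 0.54 (adjusted p = 0.00025) and 2.72 ± 0.52 (adjusted p = 0.00345). The family was also higher in tumors in the other cells, where the means were 73.5, 75.7 and 42.6 CPM for Nr4a1, Nr4a2 and Nr4a3 against 9.96, 5.24 and 0.345 CPM in mucosa.

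Immediate early and heat shock genes, which tissue dissociation is known to induce, moved the same way. Of 17 measured members 13 rose and none fell, with a median log2 fold change of 1.29, and 8 of 17 rose in Cd8b1+ gamma-negative cells. With members holding neutrophil, macrophage or epithelial UMIs left out, 10 of 16 rose. Junb measured 817, 518 and 503 CPM in mucosa and 1137, 1641 and 2091 CPM in tumors, a log2 fold change of 1.62 ± 0.24 (SE, adjusted p = 8.56e-05). Dusp1, a phosphatase induced by stress, rose by 2.27 ± 0.24 (adjusted p = 2.35e-06), Egr1 by 2.36 ± 0.30 (adjusted p = 1.27e-05) and the heat shock gene Hspa1a by 4.41 ± 0.47 (adjusted p = 2.12e-06), although reads of Hspa1a can be shared with its near copy Hspa1b. Fos measured 121, 194 and 179 CPM in mucosa and 143, 214 and 333 CPM in tumors, which overlapped (0.64 ± 0.25 (adjusted p = 0.0718)). In the other cells, Junb, Dusp1 and Egr1 averaged 155, 19 and 41.3 CPM in mucosa and 1165, 323 and 247 CPM in tumors. The enzymes used on the 2 tissues differed, and their part in the result was not tested.

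Genes of naive and memory T cells were higher in part. Of 17 measured members 9 rose and 2 fell, with a median log2 fold change of 1.63, against 1 and 2 of 17 and a median of 0.63 in Cd8b1+ gamma-negative cells, where fewer libraries and cells entered and the difference between both sets was not tested. Once members holding neutrophil, macrophage or epithelial UMIs were left out, 7 of 15 rose and 2 fell. Lef1, a transcription factor of naive cells, measured 22.1, 5.2 and 9.33 CPM in mucosa and 25.6, 53 and 150.2 CPM in tumors, a log2 fold change of 2.40 ± 0.55 (SE, adjusted p = 0.00721), with colon tumor 10 highest. Ccr7, Ly6c2 and Il7r rose by 3.39 ± 0.90 (adjusted p = 0.0191), 2.29 ± 0.43 (adjusted p = 0.00159) and 1.26 ± 0.30 (adjusted p = 0.0052). In Cd8b1+ gamma-negative cells none of these 4 genes passed, with values of 0.71 ± 0.54 (adjusted p = 0.515), 1.23 ± 0.65 (adjusted p = 0.317), 0.63 ± 0.32 (adjusted p = 0.271) and 0.66 ± 0.30 (adjusted p = 0.222). Mucosa levels there were higher than in all gated cells, for example 55 CPM for Lef1. In all gated cells, leaving out mucosa 3 ended the calls of Lef1, Ccr7 and Il7r (adjusted p of 0.0565, 0.103 and 0.0529), and leaving out mucosa 2 that of Ccr7 (0.0686).

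Satb1, a chromatin organiser of T cells, was the member of this list that rose in both sets of cells. It measured 27.7, 20.8 and 20.2 CPM in mucosa and 124, 179 and 251 CPM in tumors, a log2 fold change of 3.15 ± 0.26 (SE, adjusted p = 8.32e-08), and 2.30 ± 0.38 (adjusted p = 0.00124) in the restricted cells. Id3 and Cxcr3 fell in both. Id3, an inhibitor of E proteins, measured 98.6, 157 and 159 CPM in mucosa and 11.8, 21.2 and 92.2 CPM in tumors, a log2 fold change of -1.70 ± 0.50 (SE, adjusted p = 0.0302), and -2.0 ± 0.39 (adjusted p = 0.00442) in the restricted cells. Cxcr3, the receptor for interferon-induced chemokines, fell by -0.80 ± 0.25 (adjusted p = 0.0246) and by -1.46 ± 0.32 (adjusted p = 0.0093). Without mucosa 2 the adjusted p was 0.0928 for Id3 and 0.0999 for Cxcr3, without mucosa 1 0.117 for Cxcr3, and without mucosa 3 0.124 for Id3. Tcf7, which sustains memory and progenitor cells, measured 87.7, 88.3 and 63 CPM in mucosa and 64.6, 107 and 225 CPM in tumors, which overlapped (0.77 ± 0.30 (adjusted p = 0.0693)).

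Of 16 measured cytokine receptors 12 rose and none fell, with a median log2 fold change of 1.26. Of these 12, among them Il1r2 and Il6ra, 8 were at least as high in gated cells as in the other cells of tumors. The part of RNA from other cells was not tested. Of 11 measured after leaving out members with neutrophil, macrophage or epithelial UMIs, 6 rose. Il2rb, the shared beta chain of the IL-2 and IL-15 receptors, measured 105, 85.7 and 107 CPM in mucosa and 161, 258 and 399 CPM in tumors without overlap, a log2 fold change of 1.53 ± 0.22 (SE, adjusted p = 6.65e-05). Il18r1, Il4ra and Ifngr1, which bind IL-18, IL-4 and interferon gamma, rose by 1.88 ± 0.29 (adjusted p = 0.000115), 1.57 ± 0.26 (adjusted p = 0.00019) and 1.12 ± 0.18 (adjusted p = 0.000152). These 4 were the members that also rose in Cd8b1+ gamma-negative cells, out of 11 measured there. Il2ra (CD25) rose by 2.34 ± 0.42 (adjusted p = 0.000444) and was too low for a test in the restricted cells, and Il21r rose by 1.22 ± 0.22 (adjusted p = 0.000478) but not there (adjusted p = 0.114).

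Of 12 measured chemokine receptor and homing genes, 8 rose and none fell. In Cd8b1+ gamma-negative cells 2 of 10 rose, and without members holding neutrophil, macrophage or epithelial UMIs 4 of 8. The 8 that rose in all gated cells included Itgam, Cx3cr1 and Ccr2, which myeloid cells are known to express. Itgam rose by 4.73 ± 0.85 (adjusted p = 0.00147) and Cx3cr1 by 2.79 ± 0.78 (adjusted p = 0.014), and the other cells of tumors held more of both, 126 and 24.5 CPM. Without members holding neutrophil, macrophage or epithelial UMIs all 3 were too low for a test, and the 4 that rose were Cxcr4, Gpr183, Itgal and S1pr4. Cxcr4, the receptor for CXCL12, measured 2.11, 1.3 and 0.778 CPM in mucosa and 41.3, 58.4 and 95.9 CPM in tumors. The gap was wide, with a log2 fold change of 5.44 ± 0.35 (SE, adjusted p = 8.98e-09) and 3.71 ± 0.49 (adjusted p = 0.000165) in the restricted cells. Gpr183, the oxysterol receptor EBI2, measured 19.3, 16.9 and 7 CPM in mucosa and 56.3, 80.6 and 135 CPM in tumors, a log2 fold change of 2.79 ± 0.35 (SE, adjusted p = 1.7e-05), and rose by 1.35 ± 0.37 (adjusted p = 0.0376) in the restricted cells. Ccr2 rose by 2.49 ± 0.53 (adjusted p = 0.00319) in all gated cells, lost the call in the restricted cells (adjusted p = 0.814) and was higher in the other cells of tumors, at 59.8 CPM.

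Among 13 measured effector transcription factors 3 rose, as did 3 of 11 without members holding neutrophil, macrophage or epithelial UMIs. Irf4, induced in proportion to receptor signal strength, measured 4.21, 2.6 and 3.89 CPM in mucosa and 14.3, 26 and 61.2 CPM in tumors, a log2 fold change of 2.98 ± 0.42 (SE, adjusted p = 3.57e-05). Bhlhe40, needed for mitochondrial fitness of resident T cells, rose by 1.87 ± 0.28 (adjusted p = 7.65e-05) and Rora by 1.88 ± 0.37 (adjusted p = 0.00168). Irf4 and Bhlhe40 kept their calls in Cd8b1+ gamma-negative cells, 2.76 ± 0.72 (adjusted p = 0.0276) and 1.84 ± 0.39 (adjusted p = 0.00717), and Rora did not (adjusted p = 0.13).

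The interferon, proliferation, glycolysis and MHC class I lists had 0 to 5 members higher and none lower, beside 12.1% and 10% over all genes. Of 15 interferon response genes 3 rose, and Gbp2 alone did so in the restricted cells (1.51 ± 0.38 (adjusted p = 0.0224)). In all gated cells the Gbp2 call ended without any 1 of the mucosa libraries (adjusted p of 0.149, 0.139 and 0.119) and without colon tumor 1, 2, 4, 5, 6 or 8 (0.0609, 0.0558, 0.0532, 0.0562, 0.0632 and 0.0572). Pcna, the replication clamp, was the single riser of 15 proliferation genes (0.61 ± 0.16 (adjusted p = 0.0092)), and without mucosa 2 or 3 its adjusted p was 0.0748 or 0.0582. Of 15 glycolysis genes 5 rose, and Pkm and Slc16a3, a pyruvate kinase and a lactate exporter, kept the call in the restricted cells at 0.82 ± 0.21 (adjusted p = 0.026) and 3.0 ± 0.67 (adjusted p = 0.0101). Without members holding neutrophil, macrophage or epithelial UMIs the values were 0.63 ± 0.23 (adjusted p = 0.0612) for Pkm and 1.35 ± 0.54 (adjusted p = 0.0938) for Slc16a3, while Hk2 and Slc2a1, a hexokinase and a glucose transporter, were the 2 of 15 that rose, by 2.03 ± 0.32 (adjusted p = 2.83e-05) and 1.16 ± 0.38 (adjusted p = 0.0379). Pkm and Slc16a3 were more abundant in the other cells of tumors (708 and 168 CPM). None of 12 MHC class I genes passed in edgeR's test, with a median log2 fold change of 0.06. Markers of other cells were called in the gated sums as well, with all 8 neutrophil and all 7 measured macrophage markers higher, 3 of 4 measured plasma cell markers higher, 4 of 12 epithelial markers lower and 1 of 5 B cell markers lower. In the Cd8b1+ gamma-negative cells 1 of 6 measured neutrophil and none of 7 macrophage markers passed, although their summed levels were not lower there. The 8 neutrophil markers summed to 0 to 20.4 CPM in the 3 mucosa and 286 to 15981 CPM in the 8 tumor libraries of these cells, and the 8 macrophage markers to 4.1 to 7.69 and 61.3 to 9128 CPM, so the restricted cells were not free of myeloid RNA.

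The genes with the largest fold changes among called genes that did not overlap, reached a mean of 50 CPM in the higher group and were there no more abundant in other cells included several outside the lists. The 10 leading higher genes were Gzmc, Ramp3, Cxcr4, Nr4a3, Crem, Sik1, Icos, Irs2, Fosl2 and Ctla4. Crem, a cAMP-responsive transcription factor, measured 15.1, 6.5 and 11.3 CPM in mucosa and 131, 212 and 342 CPM in tumors, a log2 fold change of 4.31 ± 0.33 (SE, adjusted p = 5.54e-08). Ramp3, a partner of the calcitonin-family receptors, measured 1.05, 0 and 1.56 CPM in mucosa and 14.7, 47.6 and 124 CPM in tumors, a log2 fold change of 5.61 ± 0.79 (SE, adjusted p = 0.000206). Sik1, Irs2 and Fosl2, a kinase induced by cAMP, an insulin receptor substrate and an AP-1 member, rose by 4.18 ± 0.38 (adjusted p = 3.32e-07), 4.0 ± 0.40 (adjusted p = 2.12e-06) and 3.73 ± 0.34 (adjusted p = 6.4e-07). All of the 10 but Gzmc kept their calls in Cd8b1+ gamma-negative cells. Crem was also higher in tumors in CD4 T cells (21.8 ± 5.73 to 326 ± 74.9 CPM, means ± SD) and gamma delta T cells (18.3 ± 11 to 365 ± 131 CPM).

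The 10 leading lower genes were Cited4, Asb2, Cd244a, Tcrg-C2, Tcrg-C4, Ddc, Tcrg-C1, Cd7, Tespa1 and Abi3. The gamma chain genes fell with the share of members that carried them, as given above. Their reads can be shared among paralogs, so the values of the single genes are uncertain, and the Tcrg-C1 call ended without any 1 of the mucosa libraries (adjusted p of 0.058, 0.0575 and 0.127). With the same limit, Tcrg-C2 measured 361, 272 and 145 CPM in mucosa and 35.2, 65.3 and 97.3 CPM in tumors. Tespa1, which supports early T cell receptor signaling, measured 89.5, 84.4 and 63.8 CPM in mucosa and 4.09, 22.6 and 39.1 CPM in tumors, a log2 fold change of -1.57 ± 0.24 (SE, adjusted p = 8.97e-05), and kept the fall in Cd8b1+ gamma-negative cells, -1.79 ± 0.25 (adjusted p = 0.00025). Abi3 fell by -1.54 ± 0.20 (adjusted p = 1.81e-05) and lost the call there (adjusted p = 0.152). Cited4, Asb2 and Ddc measured 84.5 ± 5.92, 58.9 ± 18.6 and 50.4 ± 7.78 CPM in mucosa and 8.51 ± 6.78, 7.93 ± 5.01 and 13.9 ± 4.76 CPM in tumors (means ± SD, n = 3 and 10), and were too low for a test in the restricted cells. Gamma delta cells of the mucosa held 86 ± 24.8, 78.3 ± 17.8 and 82 ± 26.9 CPM of these genes.

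Cd8a-gated cells were then set beside the conventional CD4 T cells (1797 cells) and gamma delta T cells (1612 cells) of the same libraries, in 1 edgeR fit over 37 sums with the library as a block and 9061 genes. Colon tumors with under 20 gamma delta cells gave no sum for them, which left 8. Of these, 1273 (14%) differed from CD4 cells in tumors, 567 (6.26%) higher and 706 (7.79%) lower in gated cells. Of 12 measured cytotoxic genes 9 were higher and 1 lower, and of 19 NK receptor and adaptor genes 12 were higher and none lower. In tumors Gzma averaged 4284 ± 2142 CPM in gated cells and 594 ± 564 CPM in CD4 cells (means ± SD, n = 10), a log2 difference of 3.11 ± 0.48 (adjusted p = 8.46e-05). Ccl5 averaged 6386 ± 682 and 531 ± 323 CPM, 3.77 ± 0.36 (adjusted p = 1.47e-07), and the chemokine Xcl1, which attracts cross-presenting dendritic cells, 306 ± 208 and 1.77 ± 3.44 CPM, 7.14 ± 0.60 (adjusted p = 1.54e-08).

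Checkpoint genes ran the other way in that comparison, with 9 of 19 measured members lower in gated than in CD4 cells of tumors and 3 higher. The CD4 gate left out cells with a Foxp3 UMI, but regulatory T cells without a captured Foxp3 UMI could pass it. Their part in the contrasts with CD4 cells was not tested in either tissue. Ctla4 averaged 137 ± 57 CPM in gated and 433 ± 94.3 CPM in CD4 cells, a log2 difference of -1.60 ± 0.21 (adjusted p = 7.08e-06). Tnfrsf4 averaged 18.2 ± 6.5 and 433 ± 66.1 CPM, -4.49 ± 0.37 (adjusted p = 1.25e-08). The transcription factor Maf was lower by -4.76 ± 0.24 (adjusted p = 5.5e-13), and 8 of 13 cytokine genes were lower, Ifng among them at 124 ± 99.1 and 373 ± 270.4 CPM (-1.58 ± 0.32 (adjusted p = 0.00143)). With Cd8b1+ gamma-negative cells in place of all gated cells, 848 of 6851 genes differed from CD4 cells.

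In mucosa 210 genes (2.32%) differed between gated and CD4 cells, 127 (1.4%) higher and 83 (0.916%) lower in gated cells, with 93 without mucosa 1. Of 19 measured NK receptor and adaptor genes 13 were higher and none lower, as were 6 of 12 cytotoxic and 6 of 19 residency genes. Itgae averaged 207 ± 29.8 CPM in gated and 13.9 ± 12.2 CPM in CD4 cells (means ± SD, n = 3), a log2 difference of 3.69 ± 0.61 (adjusted p = 0.000688), and Cd160 612 ± 125 and 51 ± 65.6 CPM, 3.35 ± 0.54 (adjusted p = 0.000613). Lower in gated cells were 6 of 19 checkpoint genes, Ctla4 by -2.82 ± 0.53 (adjusted p = 0.0027) and Icos by -3.83 ± 0.56 (adjusted p = 0.000239), and 6 of 17 naive and memory genes. Gzma, Gzmb, Nkg7, Prf1, Cd160 and Cd244a were higher in gated than in CD4 cells in both tissues. With Cd8b1+ gamma-negative cells 65 of 6851 genes passed.

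Against gamma delta cells of the mucosa 18 genes (0.199%) passed, 13 (0.143%) higher and 5 (0.0552%) lower in gated cells. In tumors 418 (4.61%) passed, 236 (2.6%) higher and 182 (2.01%) lower, but 132 higher and 226 lower with RLE size factors, and 277, 264 or 189 in all without colon tumor 2, 6 or 8. Gamma delta sums came from 3 mucosa and 8 tumor libraries, so the counts of the tissues are not comparable. A Cd8a UMI was held by 42.0 to 71.1% of gamma delta cells in mucosa and 5.56 to 46.9% in the 10 tumors. In mucosa Cd6 and Cd5 were higher in gated cells by 3.44 ± 0.51 (adjusted p = 0.000586) and 4.09 ± 0.49 (adjusted p = 1.97e-06) on the log2 scale, Cd2 by 1.39 ± 0.21 (adjusted p = 0.000149) and the inhibitory Ly49 receptor gene Klra7 by 2.75 ± 0.38 (adjusted p = 7.1e-05), while the receptor kinase gene Kit was lower by -1.42 ± 0.26 (adjusted p = 0.0025), a call that ended without mucosa 1 or 2 (adjusted p of 0.0539 and 0.088). Klra genes are near-identical copies, so the Klra7 value is uncertain, and it was -1.02 with Cd8b1+ gamma-negative cells. With those cells 131 of 6851 genes differed from mucosal gamma delta cells. In tumors 9 of 16 signaling genes were higher in gated cells, Cd6 by 2.65 ± 0.42 (adjusted p = 0.00027) and Cd28 by 1.98 ± 0.26 (adjusted p = 1.12e-05), and Gzmk by 4.01 ± 0.56 (adjusted p = 3.35e-05). Cd163l1, a scavenger receptor of IL-17-producing gamma delta cells, and Areg, the growth factor amphiregulin, were lower by -6.30 ± 0.36 (adjusted p = 5.69e-16) and -3.50 ± 0.59 (adjusted p = 0.000914). The gamma delta gate had left out cells with an Il17a UMI. The hemoglobin gene Hbb-bt, a red cell transcript, also passed as higher in gated cells of tumors (6.18 ± 1.74 (adjusted p = 0.0458)). That call ended without colon tumor 4 (adjusted p = 0.311) and without most other single libraries.

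**Figure D5:**
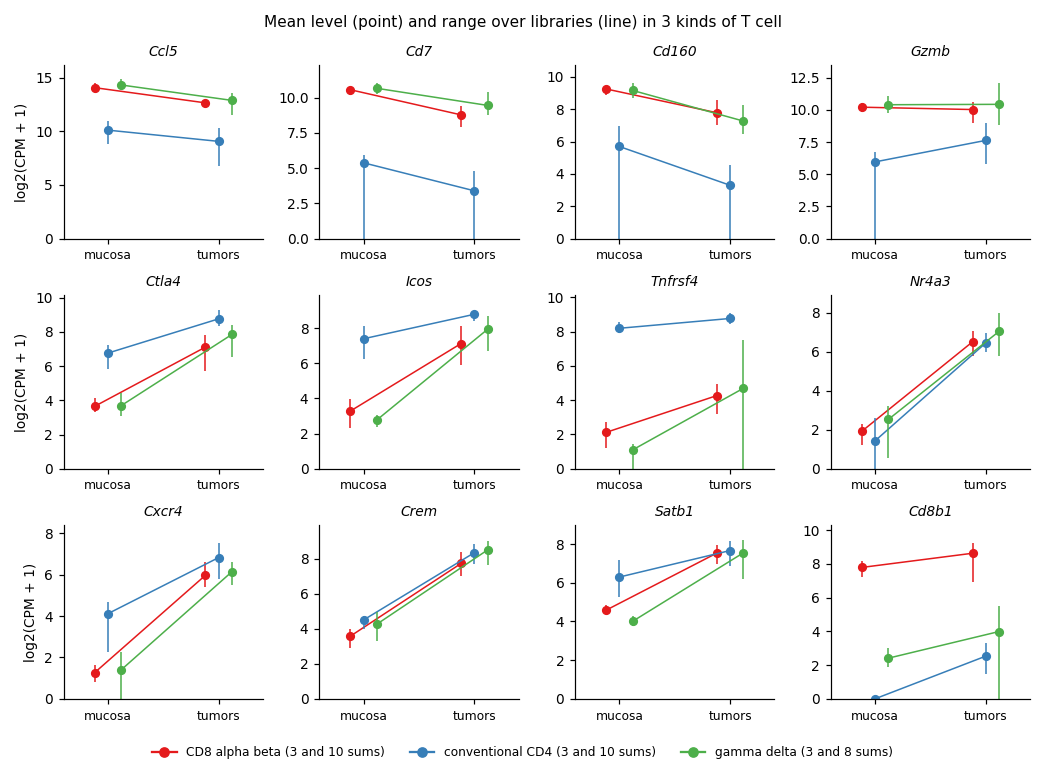
Mean level (points) and range over libraries (bars) of 12 genes in Cd8a-gated, conventional CD4 and gamma delta T cells of mucosa and tumors, as log2(CPM + 1). The means of Ccl5, Gzmb and Cd7 lie closer to those of gamma delta than of CD4 cells in the gated cells, and Ctla4 and Icos are highest in CD4 cells in both tissues.

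Whether the tumor to mucosa difference itself differed between classes was tested as an interaction. Against CD4 cells 44 genes (0.486%) passed, 15 (0.166%) with the change higher and 29 (0.32%) with it lower in gated cells, or 18 and 15 with RLE size factors. The tumor to mucosa change of Lef1 and Satb1 was higher in gated than in CD4 cells, by 2.39 ± 0.45 (adjusted p = 0.00709) and 1.71 ± 0.37 (adjusted p = 0.0318). Without mucosa 1 the Lef1 value was 1.37 (adjusted p = 0.738). In CD4 cells Lef1 averaged 65.6 ± 60.2 CPM in mucosa and 55.4 ± 14.1 CPM in tumors. Of 19 measured NK receptor and adaptor genes 7 had a lower tumor to mucosa change in gated cells, among them the signaling adaptor Fcer1g, at 806 ± 233 and 575 ± 201 CPM in gated cells of mucosa and tumors and 1.26 ± 2.19 and 280.2 ± 159 CPM in CD4 cells. Fcer1g is also abundant in myeloid cells, and the other cells of tumors held 1350.0 CPM, whose part in the CD4 value was not tested. Its call ended without mucosa 1 or 3 (adjusted p of 0.257 and 0.0884). Mucosa sums held 20, 43 or 80 CD4 cells each. With Cd8b1+ gamma-negative cells edgeR called 0 genes, with 564 at an unadjusted p under 0.05, and leaving out mucosa 1 also gave 0, with 742 at an unadjusted p under 0.05. Without mucosa 2, mucosa 3 or colon tumor 8 the count was 20, 10 or 26. Against gamma delta cells 2 genes (0.0221%) passed, Ramp1 at -2.74 ± 0.42 (adjusted p = 0.0067) and Hilpda at -1.67 ± 0.32 (adjusted p = 0.0481). Neither passed without mucosa 1 or mucosa 2, and Hilpda also failed without mucosa 3 (adjusted p = 0.278) and without colon tumor 1, 5, 6, 8, 9 or 10 (0.0502 to 0.116). Ramp1 averaged 78.3 ± 18.8 CPM in gated cells of mucosa and 22 ± 15.8 CPM in tumors, and 72.3 ± 32.3 and 176 ± 99.4 CPM in gamma delta cells.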

How the data were processed

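The authors dissociated colon tumors and adjacent mucosa of 3 mice, made 10x Chromium 3′ v3.1 libraries and, per the submitters' processing notes, ran Cell Ranger 6.0.0 on mm10. They deposited raw UMI counts per gene and barcode, without normalization or cell type labels, for 13 libraries. The counts were used as deposited. Barcodes with at least 500 UMIs, 200 genes and under 25% mitochondrial UMIs were kept, the gate was applied to raw counts, and no doublets were removed in the main results. A nearest-neighbor score against simulated doublets (2000 genes, 30 components) served as an alternative that removed 0.8% of barcodes per 1000 barcodes.

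UMIs of gated cells were summed per library, with at least 20 cells a sum. Sums were tested with edgeR 4.0.16 (R 4.3.3, TMM, filterByExpr, robust quasi-likelihood test, Benjamini-Hochberg, threshold 0.05), with no block for tumor against mucosa and the library as a block between cell classes. DESeq2 1.42.0 was an alternative. Shares were compared by exact two-sided permutation within mice. In counts simulated for the tumor to mucosa comparison over 7382 genes, 31.3% of genes changed by 1 and 97.9% of genes changed by 2 on the log2 scale were recovered. Of 7203 unchanged genes 9 were called. All genes were given the same dispersion, with no mouse effect and no RNA of other cells, so these rates hold for that setting only. UMI totals per library and per gated sum are given with the results, and intervals or zeros cover counting error only.

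Replicate numbers count tumors and mucosa separately, so they do not mark a mouse. Number 1 joins samples of mouse C, and numbers 2 and 3 join samples of different mice. The mean deviation of a mouse's tumors from their group did not follow that of its mucosa (correlations of 0.07, -0.12 and -0.11 for mice A, B and C). Neither the number nor the mouse was a block in the main fit. Likeness among the tumors of a mouse was not tested for these sums, and with the mouse as a block 1661 genes differed. Lists of 305 genes in 24 groups were used. The members, lists and tests were chosen with earlier results of these data known. Genes named are those that fill a role in a list, and the 10 largest changes each way (5 between cell classes) past the threshold with no overlap of the groups compared between tissues, at least 50 CPM in the higher group and a level there no lower than in all other cells. The restricted cells without gamma transcripts, the fit without colon tumors 3 and 5 and the comparisons within mucosa were added after seeing the data. Some genes that this rule names are not reported here, but they stayed in the fits and the counts of their lists. Promoter windows are RefSeq sequences, matched for 3 of 3 genes looked for.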

Additional observations from a re-analysis of the deposited data

Results flagged for a closer look

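In 12 of 85 gene level groups of the 10 tumors, 1 tumor stood apart from the others by Dixon's test, where chance would flag about 1 in 20 for normally distributed values. The test used untransformed CPM and all 12 flags were on the high side, so an excess over chance was not shown. Colon tumor 9 was highest for Gzmc (754 CPM, next 315), Cd6 (148, next 85.6), Il7r (517, next 320.5), Il2ra (65.4, next 29.3) and Il2rb (399, next 287). Colon tumor 6 was highest for Cd5 (66.0, next 42.8) and Irf4 (61.2, next 38.3). Colon tumor 2 led Ifng (380, next 175), colon tumor 3, with 30 gated cells, Nr4a1 (143, next 89.4), colon tumor 10 Lef1 (150, next 71.1), colon tumor 1 Cxcr3 (59.9, next 41.3) and colon tumor 7 Tcrg-C4 (100.2, next 56.3), whose reads can be shared with its paralogs. All values are CPM in gated cells.

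The tumor to mucosa change differed between gated and conventional CD4 T cells for 44 genes by edgeR's interaction term. Among genes named above, the change was higher in gated cells for Lef1 (2.39 on the log2 scale), Cd28 (1.77) and Satb1 (1.71). It was lower for Asb2 (-1.88), Cd244a (-7.94) and Klrc2 (-6.92). The last pair had 0 UMIs in the CD4 sums of the mucosa, so their values depend on the fit's prior and give no size. Against gamma delta T cells 2 genes, Ramp1 and Hilpda, had a lower change in gated cells.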

How the results depend on the processing

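The number of genes that differed between tumor and mucosa was 1720, and 1719 with DESeq2, 1720 with RLE size factors, 1752 with a 10% mitochondrial limit and 1661 with the mouse as a block. It was 2364 of 17439 tested genes without a filter on low counts, beside 1720 of 7777 in the main fit. With the replicate number as a block it was 856 of 7777, although the numbers do not pair the samples (correlations of 0.22, -0.08 and 0.23 for numbers 1, 2 and 3). It was 451 of 6296 in cells with a Cd8b1 UMI, 709 of 4119 in cells without, 760 of 5770 in cells with no gamma transcript and 248 of 4842 in Cd8b1+ gamma-negative cells. It was 920 of 6911 without likely doublets, 715 of 5109 without cells holding other lineage UMIs and 724 of 3477 after thinning. Without mucosa 2 it was 1087 of 8096 and without mucosa 3 837 of 8054, and leaving out each library gave 837 to 1786. Most of these fits tested different numbers of genes, so their counts do not share 1 base. Fewer cells and genes entered the restricted fits, and sums under 20 cells were left out. These were colon tumor 5 without cells of other lineage UMIs (4 cells) and in cells without Cd8b1 (19), and colon tumor 3 in cells with no gamma transcript (17). In cells with a Cd8b1 UMI they were colon tumors 3 and 5 (8 and 19). The cause of the other changes was not tested.

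The share of kept cells was lower by -8.60 to -4.83 points without each library in turn, that of T cells by -25.0 to -18.7, and the Cd8b1 share higher by 33.1 to 44.1. Without mucosa 1 or 2 the exact test allows no p under 0.0667. Without mucosa 3 it allows 0.04, and the adjusted p was 0.06, 0.06 and 0.08 for the 3 shares. Without gamma transcripts the difference in T cell share was -1.02 points and in Cd8b1 share 29.0 (adjusted p = 0.06, exact permutation, with mouse C at -3.94), and after thinning the latter was 20.1.

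Between classes, the main fit tested 9061 genes, beside 19128 without a count filter and 8525 without likely doublets. With Cd8b1+ cells 8280 were tested, and with Cd8b1+ gamma-negative cells 6851. Counts against CD4 and gamma delta cells of tumors were 1273 and 418, and 1091 to 1276 and 189 to 489 without each library. Without the library block they were 840 and 211, and with Cd8b1+ gamma-negative cells the count against CD4 was 848. Without a count filter that against gamma delta cells was 737. Within mucosa the counts were 210 and 18, ranging from 93 (without mucosa 1) to 241 and from 12 to 21. They were 434 and 58 without a count filter and 65 and 131 with Cd8b1+ gamma-negative cells, and the second was 113 with Cd8b1+ cells. The 44 interaction genes against CD4 cells became 289 without a count filter, 27 without likely doublets, 7 with Cd8b1+ cells, 0 with Cd8b1+ gamma-negative cells and 9 without the library block, where no replicate block was used, and ranged from 0 to 45 without each library. Without likely doublets mucosa 2 held 18 CD4 cells and gave no CD4 sum. The 2 against gamma delta cells became 4 with RLE size factors, 141 without a count filter, 5 and 4 in the restricted cells and 0 without the block, and ranged from 0 to 4.

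For single genes, 2812 of 3137 values over 129 results kept direction and side of the threshold, 282 lost and 8 gained the call, and 35 changed sign. In the tumor to mucosa comparison these were Cd8b1 at -0.36 (Cd8b1+ cells) and -0.49 (Cd8b1+ gamma-negative cells), which is no measure of change since those cells were chosen for the gene, Nkg7 at 0.044 (tumors summed by mouse), 0.021 (Cd8b1- cells), 0.019 (cells with no gamma transcript), 0.060 (without colon tumors 3 and 5) and -0.21 to 0.076 without single libraries, and Gzma at 0.24 (Cd8b1+ gamma-negative cells). Others were Gzmb at -0.0091 (DESeq2), -0.0086 (RLE size factors), -0.044 (no count filter), -0.084 (Cd8b1- cells), -0.32 (without likely doublets), -0.11 (without cells of other lineage UMIs), -0.25 (thinning) and -0.19 to 0.24 without single libraries, Prf1 at 0.026 (tumors summed by mouse), 0.14 (Cd8b1- cells) and -0.39 to 0.028 without single libraries, Ifng at -0.58 (Cd8b1- cells), Cd6 at -0.26 (Cd8b1+ gamma-negative cells), Cd5 at -0.14 (Cd8b1+ cells) and -0.25 (Cd8b1+ gamma-negative cells), and Lag3 at 0.34 (Cd8b1- cells) and 0.19 (Cd8b1+ gamma-negative cells). Between classes they were Klra7 against mucosal gamma delta cells (-1.02) and the CD4 interaction of Klf2 (-0.031) with Cd8b1+ gamma-negative cells. None of these genes passed the threshold in the opposite direction. Cell numbers were low in colon tumors 3 and 5 (30 and 38 gated cells) and in the CD4 sums of the mucosa (20 to 80 cells). Depth per cell was low in mucosa 2 and 3. Their part in these changes was not tested.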
